A study of Homo sapiens with 10 samples.

Results

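Mature miRNA levels in ES-2 cells transfected with a pool of siRNAs against IGF2BP3 (siIGF2BP3, 3 libraries) were compared with those in cells transfected with control siRNA (siC, 2 libraries). ES-2 is an established human ovarian cancer cell line, and all groups were grown in DMEM with serum. The comparison covers every mature miRNA with a normalised read count of at least 1 in at least 2 of these 5 libraries, which held for 748 of the 2576 mature miRNAs in the table. Of the 748, 452 met that minimum within each group, 96 met it only in siC, 117 only in siIGF2BP3, and 83 through 1 library of each group. The same series holds 2 libraries with an siRNA pool against IGF2BP1 (siIGF2BP1) and 3 with one against IGF2BP2 (siIGF2BP2). Neither the siRNA dose nor the time of harvest is known here, and the table of mature miRNAs has no entry for an IGF2BP mRNA, so depletion of IGF2BP3 was not measured. In the labels, 1 source name covers siC and siIGF2BP1 and a different one covers siIGF2BP2 and siIGF2BP3. Knockdown and source name can therefore not be told apart in siIGF2BP3 against siC. siIGF2BP3 against siIGF2BP2 lies within 1 source name, but siC has no library under that name. Which of the 2 knockdowns a difference between them comes from can thus not be told from that contrast. Both comparisons are given for each main result.

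IGF2BP3 is an RNA-binding protein of fetal tissues that many carcinomas make again. With its paralogs IGF2BP1 and IGF2BP2 it binds mRNAs, stabilises or translates them, and can shield them from miRNA-directed repression. Its own mRNA and those of its paralogs are known let-7 targets. A miRNA is cut from a hairpin by Drosha and Dicer, and either arm of the hairpin (5p or 3p) can be loaded into an Argonaute protein. The loaded arm finds its target mRNAs mainly by its seed, so that miRNAs with a common seed share many targets.

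The mature sequences of some miRNAs called in both comparisons, and of relatives with the same seed, are shown first, because several of them form seed families. They come from RefSeq (GRCh38.p14), which had a sequence for 666 of the 748 miRNAs, and capitals mark the seed, bases 2 to 8 from the 5′ end. The first pair differs only outside the seed, and only its first member was called.
miR-146a-5p: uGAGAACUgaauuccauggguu
miR-146b-5p: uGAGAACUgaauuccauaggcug
The 5p arms of the miR-181 family share 1 seed and were all lower in siIGF2BP3 than in siC.
miR-181a-5p: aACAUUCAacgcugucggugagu
miR-181b-5p: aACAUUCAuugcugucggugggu
miR-181c-5p: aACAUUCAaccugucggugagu
miR-181d-5p: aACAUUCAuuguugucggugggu
miR-21-5p, miR-30c-5p and miR-27b-3p were lower, and miR-27a-3p, with the seed of miR-27b-3p, was not called.
miR-21-5p: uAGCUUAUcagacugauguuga
miR-30c-5p: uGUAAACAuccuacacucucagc
miR-27b-3p: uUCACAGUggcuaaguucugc
miR-27a-3p: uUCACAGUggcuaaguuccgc
miR-31-5p, miR-222-3p and miR-155-5p were higher and carry different seeds, and miR-221-3p shares that of its cluster partner miR-222-3p.
miR-31-5p: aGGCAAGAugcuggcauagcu
miR-222-3p: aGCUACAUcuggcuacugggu
miR-221-3p: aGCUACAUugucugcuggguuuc
miR-155-5p: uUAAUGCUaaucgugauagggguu

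In siIGF2BP3 against siC, 94 of the 748 miRNAs differed at an adjusted p of 0.05 or less (limma on log2(value + 1), adjusted over the 889 miRNAs tested in all 10 libraries). The calls were 17 higher, which is 1.91% of the 889 tested, and 77 lower, which is 8.66%. In all, 10.6% of the tested miRNAs were called. Of the 77 lower miRNAs, 55 had at most 3 reads in all siIGF2BP3 libraries together, 45 of these none, and they are described separately. Among the 16 miRNAs with a mean of at least 10000 over the 5 libraries, 1 was higher and 2 were lower, and among the 40 between 1000 and 10000, 5 were higher and 4 lower. The split depended on the scaling: with libraries rescaled by their upper quartile, 91 were called higher and 69 lower, and the median log2 fold change of all tested miRNAs moved from 0 to 0.27. With TMM factors the calls were 9 higher and 82 lower.

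**Figure D1:**
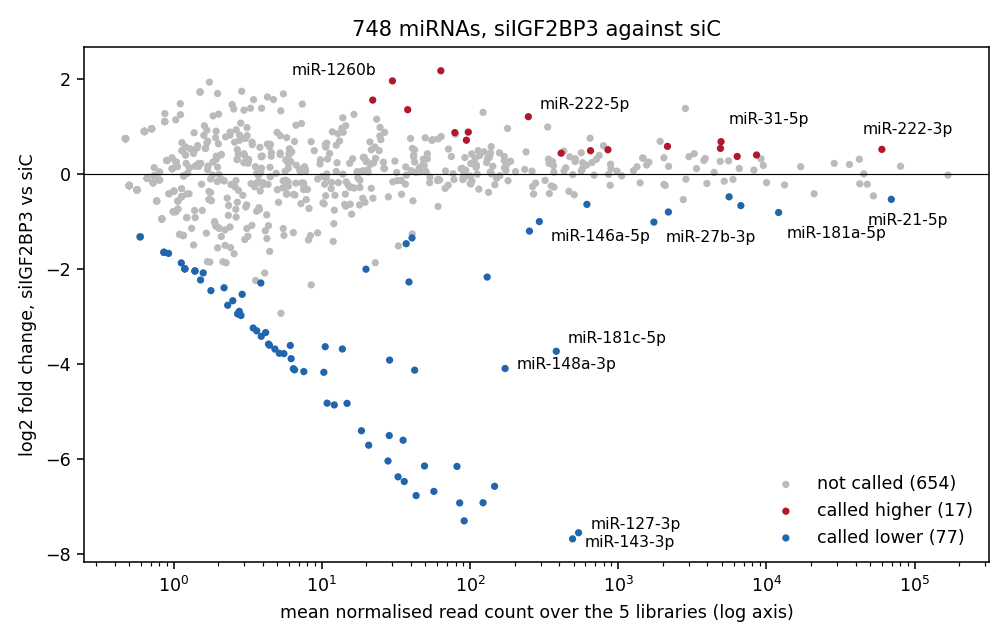
Log2 fold change of siIGF2BP3 against siC (y axis, limma) for the 748 miRNAs against their mean normalised read count over the 5 libraries (x axis, log scale), each point 1 miRNA. The 17 miRNAs called higher spread from low means up to the abundant miR-222-3p, while the 77 called lower form a steep arm reaching -7.67 (miR-143-3p) and a shallower group of abundant miRNAs near -1.

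Against siIGF2BP2, 28 miRNAs were called (3.15% of the 889), 13 of them higher in siIGF2BP3 (1.46%) and 15 lower (1.69%). This contrast is also the test of whether the 2 knockdowns' differences from siC differ. In both comparisons 4 miRNAs were called higher, namely miR-31-5p, miR-222-3p, miR-155-5p and miR-1910-5p. In both, 8 were called lower, namely miR-146a-5p, miR-181a-5p, miR-181b-5p, miR-181a-3p, miR-21-5p, miR-27b-3p, miR-30c-5p and miR-126-5p. The comparisons share the siIGF2BP3 libraries, so these counts are no measure of agreement. In 26 miRNAs all 3 siIGF2BP3 libraries lay above all 7 others (2.92% of the 889), and 12 of these were called higher against siC. In 21 they lay below all 7 others (2.36%), and 13 of these were called lower. Without the intensity trend in limma, the calls against siIGF2BP2 fell from 28 to 1, that of miR-146a-5p. Against siC the same change ended further calls. Among them were those of miR-31-5p, miR-222-3p, miR-155-5p, miR-181a-5p, miR-181b-5p, miR-21-5p and miR-30c-5p, whose adjusted p in limma then lay between 0.0608 and 0.397.

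miR-146a-5p, which damps inflammatory signalling by repressing adaptors of the NF-κB pathway, fell in both comparisons and under every setting tried. Its normalised read counts were 416 and 422 in siC and 228, 202 and 201 in siIGF2BP3. They were 577 and 512 in siIGF2BP1 and 996, 993 and 939 in siIGF2BP2. The groups did not overlap, and the siIGF2BP3 libraries were the lowest and the siIGF2BP2 libraries the highest of the 10. The log2 fold change was -0.99 ± 0.13 (SE) against siC (limma, adjusted p = 0.000153) and -2.21 ± 0.11 against siIGF2BP2 (limma, adjusted p = 1.05e-07). In siIGF2BP2 against siC it was 1.22 (limma, adjusted p = 2.41e-05). miR-146b-5p, from another locus but with the same seed, had 205 and 192 in siC and 196, 211 and 213 in siIGF2BP3 and was not called (log2 fold change 0.06). The ratio of miR-146a-5p to miR-146b-5p was 2.03 and 2.201 in siC, 4.72, 4.602 and 5.44 in siIGF2BP2, and 1.16, 0.961 and 0.944 in siIGF2BP3. This ratio uses no scaling between libraries, and its groups did not overlap.

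The miR-181 family, known from lymphocyte development and as regulators of several tumour suppressors and oncogenes, was low in siIGF2BP3. Of its 8 measured members 6 were called lower and 0 higher against siC, with a median log2 fold change of -0.73, against a median of 0 over all tested miRNAs. Against siIGF2BP2, 4 of the 8 were called lower and the median was -0.67. miR-181a-5p, the most abundant member, had normalised read counts of 16732 and 15681 in siC and 9421, 9981 and 8529 in siIGF2BP3. It had 16747 and 21341 in siIGF2BP1 and 20967, 17449 and 19596 in siIGF2BP2, so that each siIGF2BP3 library lay below each of the 7 others. Its log2 fold change was -0.80 ± 0.12 (SE) against siC (limma, adjusted p = 0.000596) and -1.05 ± 0.11 against siIGF2BP2 (limma, adjusted p = 0.000107).

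miR-181b-5p, made from the same primary transcripts as miR-181a, had 8663 and 8517 in siC and 5263, 6002 and 5125 in siIGF2BP3. In siIGF2BP2 it had 9585, 8479 and 9041, so its siIGF2BP3 libraries too were the lowest of all. The log2 fold changes were -0.66 against siC and -0.73 against siIGF2BP2 (limma, adjusted p = 0.000636 in the latter). The passenger arm miR-181a-3p had means of 781 ± 80.4 (SD, n = 2) in siC and 504 ± 37.2 (SD, n = 3) in siIGF2BP3 and was called in both comparisons. Its call against siC was lost after upper-quartile rescaling (log2 fold change -0.25, limma, adjusted p = 0.369), without the trend, and in 4 of 5 fits with 1 library left out. Its call against siIGF2BP2 was lost in 5 of 6 such fits. The ratio of the main to the passenger arm of miR-181a was 19.97 and 21.7 in siC and 18.1, 18.9 and 18.5 in siIGF2BP3, and it was 11.5 and 12.3 in siIGF2BP1 and 22.4, 24.3 and 27.9 in siIGF2BP2. The siIGF2BP3 ratios thus lay below those of siC and siIGF2BP2 and above those of siIGF2BP1, with no overlap between groups, and the 5p reads come from both miR-181a hairpins. miR-181a-2-3p, the passenger arm of the other miR-181a hairpin, was called against siIGF2BP2 (log2 fold change -0.90, limma, adjusted p = 0.00421) and not against siC (-0.26). Rescaling by the upper quartile left the falls against siC at -0.42 for miR-181a-5p and -0.27 for miR-181b-5p, neither called, with adjusted p of 0.0535 and 0.168 in limma.

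miR-181c-5p and miR-181d-5p come from a separate cluster and behaved differently from miR-181a and miR-181b. miR-181c-5p had 407 and 1336 in siC, 386 and 465 in siIGF2BP1, 83.5, 103 and 84.6 in siIGF2BP2, and 47.9, 52.1 and 66.6 in siIGF2BP3. Its level thus differed mainly between the source names, with a log2 fold change of -3.72 against siC and -0.70 against siIGF2BP2 (limma, adjusted p = 0.37 in the latter). For miR-181d-5p the values were -1.19 and -0.23, and the call against siC was lost without siC C3 or siIGF2BP3 replicate 1. That call was also lost without the trend and in a fit of only the libraries compared (limma, adjusted p = 0.0684 and 0.0601). The family's share of reads was 2.99% and 2.78% in siC, between 2.90% and 3.28% in siIGF2BP2, and 1.69%, 1.77% and 1.598% in siIGF2BP3.

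miR-21-5p, an oncogenic miRNA that represses PDCD4, had 84161 and 85862 in siC and 60131, 55536 and 61734 in siIGF2BP3. The other knockdowns had 104454 and 104483 (siIGF2BP1) and 86807, 98995 and 99613 (siIGF2BP2). Every siIGF2BP3 library was below every other library. The log2 fold change was -0.53 ± 0.09 (SE) against siC (limma, adjusted p = 0.00104) and -0.68 ± 0.08 against siIGF2BP2 (limma, adjusted p = 0.000219). Rescaled by the upper quartile, the first became -0.14 (limma, adjusted p = 0.543) and the second -0.71. Its passenger arm miR-21-3p did not follow, with 2456 and 2535 in siC and 2225, 2732 and 6323 in siIGF2BP3. The highest of these is siIGF2BP3 replicate 3, which was also the highest of its group for miR-29b-3p (257, 219 and 834), miR-142-5p (565, 502 and 1313) and miR-142-3p (41.9, 33.1 and 174). Without that library, 15 miRNAs were called higher and 63 lower against siC.

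miR-30c-5p, of a family that restrains mesenchymal gene expression, fell from 6707 ± 215 (SD, n = 2) in siC to 4849 ± 417 (SD, n = 3). Its log2 fold change was -0.47 (limma, adjusted p = 0.00649), and -0.46 against siIGF2BP2 (limma, adjusted p = 0.0167), a call lost without siIGF2BP2 replicate 1 or 3. The call against siC was lost without siC C3 (limma, adjusted p = 0.065), and after upper-quartile rescaling the value was -0.09. In siIGF2BP1 miR-30c-5p also lay below siC, though it was not called, and the lower siIGF2BP1 library was close to the highest of siIGF2BP3. miR-30a-5p, with the same seed and a higher level, had 54269 and 49634 in siC, 61265, 66175 and 63068 in siIGF2BP2, and 43140, 44713 and 47226 in siIGF2BP3. It was called only against siIGF2BP2 (log2 fold change -0.50, limma, adjusted p = 0.00213). The siIGF2BP3 libraries overlapped those of siIGF2BP1, at 42392 and 43986. Of the 11 members of the miR-30 family 1 was called lower and 0 higher against siC, with a median log2 fold change of 0.05.

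miR-27b-3p, a regulator of lipid metabolism and vessel growth, had 2543 and 2419 in siC, 3966 and 3509 in siIGF2BP1, 1821, 1758 and 1604 in siIGF2BP2, and 1062, 1271 and 1403 in siIGF2BP3. Its log2 fold change was -1.003 against siC (limma, adjusted p = 0.000155) and -0.48 against siIGF2BP2 (limma, adjusted p = 0.0409, and up to 0.421 under the other settings). The latter call was lost in 7 of 14 other settings and in 5 of 6 fits with 1 library left out. miR-27a-3p, of the paralogous cluster, differed little from siC, at -0.03. The ratio of miR-27b-3p to miR-27a-3p was 2.48 and 2.18 in siC, 1.48, 1.22 and 1.21 in siIGF2BP2, and 1.14, 1.197 and 1.22 in siIGF2BP3. The cluster partner miR-23b-3p also fell, to 21.3 ± 2.07 (SD, n = 3) from 60.8 ± 13.7 (SD, n = 2) in siC, and its ratio to miR-23a-3p was 0.112 and 0.134 in siC and 0.0402, 0.0433 and 0.0463 in siIGF2BP3. Both ratios were below siC in all siIGF2BP2 and siIGF2BP3 libraries, and for miR-27b the ranges of these knockdowns overlapped. miR-584-5p also fell against siC, from 2908 ± 90.6 (SD, n = 2) to 1694 ± 264 (SD, n = 3). Its value in siIGF2BP2, 2137 ± 186 (SD, n = 3), lay between, and the difference between these knockdowns was -0.34 (limma, adjusted p = 0.191). Upper-quartile rescaling ended the call of miR-584-5p against siC (log2 fold change -0.41, limma, adjusted p = 0.0571), as did leaving out the intensity trend (limma, adjusted p = 0.0731).

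**Figure D2:**
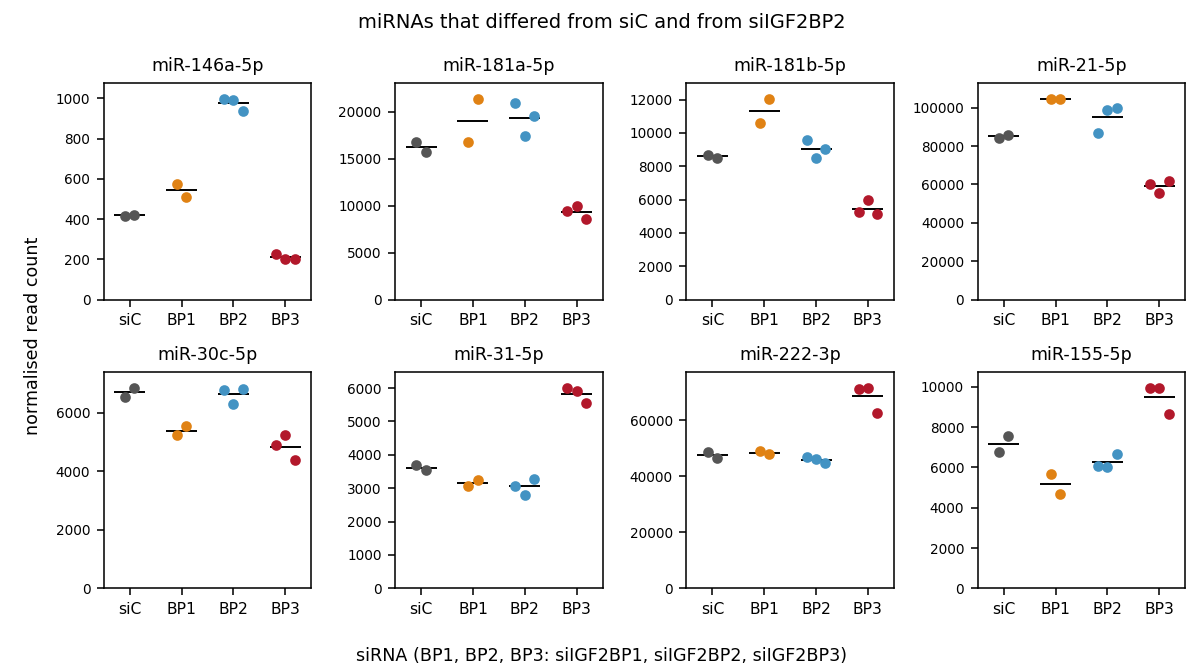
Normalised read counts (y axes, linear from 0) of 8 miRNAs in all 10 libraries by siRNA (x axes), each point 1 library and each line the group mean. In miR-146a-5p, miR-181a-5p, miR-181b-5p, miR-21-5p and miR-30c-5p the 3 siIGF2BP3 libraries are the lowest of the 10, and in miR-31-5p, miR-222-3p and miR-155-5p they are the highest. For miR-30c-5p the margin to siIGF2BP1 is small.

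miR-31-5p, which acts on cell adhesion and invasion genes and is lost or gained in different carcinomas, rose. Its normalised read counts were 3686 and 3531 in siC and 6005, 5919 and 5544 in siIGF2BP3. They were 3062 and 3236 in siIGF2BP1 and 3073, 2810 and 3274 in siIGF2BP2, and the siIGF2BP3 libraries were the highest of the 10. The log2 fold change was 0.69 ± 0.10 (SE) against siC (limma, adjusted p = 0.000451) and 0.93 ± 0.09 against siIGF2BP2 (limma, adjusted p = 7.14e-05). The passenger arm miR-31-3p, at 28.0 and 38.6 in siC and 87.8, 34.3 and 60.7 in siIGF2BP3, overlapped and was not called (log2 fold change 0.77, limma, adjusted p = 0.318).

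miR-222-3p, which with miR-221-3p represses the cell cycle inhibitor p27, had 48465 and 46322 in siC and 71233, 71462 and 62579 in siIGF2BP3. In siIGF2BP1 it had 48934 and 47897, and in siIGF2BP2 46698, 46013 and 44526. The 7 libraries without the IGF2BP3 siRNA spanned a narrow range, and all 3 with it lay above. The log2 fold change was 0.53 ± 0.08 (SE) against siC (limma, adjusted p = 0.000833) and 0.58 ± 0.07 against siIGF2BP2 (limma, adjusted p = 0.000644). The other arm, miR-222-5p, had 112 and 164 in siC, 221, 218 and 235 in siIGF2BP2, and 297, 266 and 398 in siIGF2BP3. Its siIGF2BP1 libraries too lay above both siC libraries, a difference that was not called, so all knockdown libraries were above siC. In siIGF2BP3 miR-222-5p rose against siC by 1.22 on the log2 scale (limma, adjusted p = 0.00136), and its difference from siIGF2BP2 was 0.49 (limma, adjusted p = 0.224). miR-221-3p was not called, at 0.32 (limma, adjusted p = 0.141). The cluster's share of reads was 9.37% and 8.79% in siC, 8.83% to 9.79% in siIGF2BP2, and 13.2%, 12.7% and 11.4% in siIGF2BP3.

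miR-155-5p, a miRNA of immune activation that is raised in many tumours, had 6771 and 7547 in siC and 9950, 9947 and 8633 in siIGF2BP3. It had 5699 and 4664 in siIGF2BP1 and 6074, 6016 and 6663 in siIGF2BP2, again all below siIGF2BP3. The log2 fold change was 0.60 against siIGF2BP2 (limma, adjusted p = 0.00556) and 0.41 against siC (limma, adjusted p = 0.0379). The latter call was lost in 7 of 13 other settings, with TMM factors among them (limma, adjusted p = 0.193), and when any of 4 of the 5 libraries was left out. miR-155-5p and miR-146a-5p are both induced by NF-κB in immune cells, and here they moved in opposite directions. In the authors' deposited table, miR-146a-5p has a log2 fold change of -1.003, miR-31-5p of 0.69 and miR-155-5p of 0.41, the last with a false discovery rate of 0.0809.

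**Figure D3:**
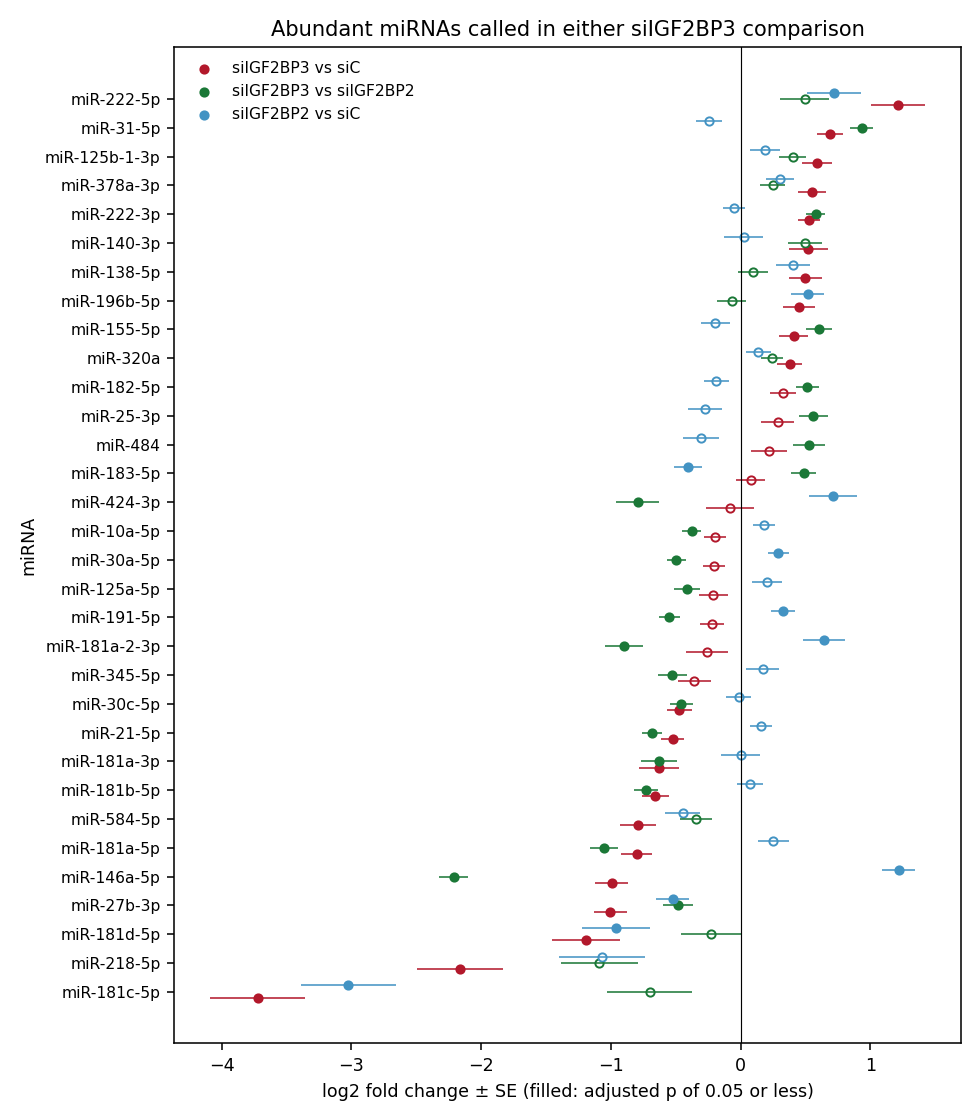
Log2 fold changes ± SE (x axis, limma) of the 32 miRNAs with a mean of at least 100 and over 100 reads in siIGF2BP3 that were called in siIGF2BP3 against siC or against siIGF2BP2 (y axis), with siIGF2BP2 against siC beside them; the contrasts share libraries. miR-146a-5p shows the widest spread, from -2.21 against siIGF2BP2 to 1.22 for siIGF2BP2 against siC, while miR-31-5p, miR-222-3p, miR-21-5p and miR-181b-5p have similar values in both siIGF2BP3 contrasts.

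Among other abundant miRNAs called higher against siC, 3 had siIGF2BP2 means between those of siC and siIGF2BP3. miR-378a-3p, which lies in an intron of the metabolic coactivator gene PPARGC1B, had 3757 and 3889 in siC, 4962, 4437 and 4759 in siIGF2BP2, and 5203, 6112 and 5494 in siIGF2BP3. miR-125b-1-3p, a passenger arm, had 1559 and 1733 in siC, 1959, 1787 and 1882 in siIGF2BP2, and 2223, 2701 and 2526 in siIGF2BP3. miR-320a, which is made without Drosha, had 4978 and 5790 in siC and 6626, 7405 and 6923 in siIGF2BP3. Their log2 fold changes against siC were 0.55, 0.59 and 0.38, and the first and the last have values of 0.25 and 0.24 against siIGF2BP2 (limma, adjusted p = 0.251 and 0.194). For miR-125b-1-3p the value against siIGF2BP2 was 0.40 (limma, adjusted p = 0.0599). The calls of miR-378a-3p and miR-125b-1-3p against siC were lost without the intensity trend (limma, adjusted p = 0.197 and 0.154). miR-140-3p rose from 672 ± 52.5 (SD, n = 2) to 972 ± 160 (SD, n = 3), miR-138-5p from 521 ± 51.4 to 736 ± 44.2, and miR-196b-5p, of the HOX clusters, from 338 ± 23.8 to 461 ± 9.62. For miR-196b-5p siIGF2BP2 had a similar level, 484 ± 10.6 (SD, n = 3). Its call against siC was lost in 8 of 13 other settings, with TMM factors among them (limma, adjusted p = 0.16), and in 4 of 5 fits with 1 library left out. The call of miR-320a was lost in 5 of 13 other settings (limma, adjusted p = 0.171 with TMM factors), and without siC C2 or siIGF2BP3 replicate 2. That of miR-140-3p was lost in 7 of 13 settings and in 4 of 5 fits with 1 library left out, and that of miR-138-5p in 6 settings and without siC C2 or siIGF2BP3 replicate 1.

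The largest fold rises were in entries with few reads. miR-1260b had 9.90 and 10.6 in siC, 29.7 and 37.9 in siIGF2BP1, 31.1, 28.6 and 31.1 in siIGF2BP2, and 43.9, 41.4 and 44.0 in siIGF2BP3, a log2 fold change of 1.97 against siC (limma, adjusted p = 0.000148). All knockdown libraries, of both source names, were above both siC libraries. miR-1260a, with the same seed, rose by 1.56, miR-7641 by 1.36 and miR-6087 by 2.18 on the log2 scale. Without siC C3 miR-6087 stood at 1.41 (limma, adjusted p = 0.381), and its call was also lost without siIGF2BP3 replicate 1 or 2. The call of miR-7641 was lost in 4 of 5 fits with 1 library left out, and that of miR-1260a without siC C2 (limma, adjusted p = 0.137). The miR-1260 sequences resemble tRNA, and reads of tRNA fragments cannot be told apart from theirs. They belong to a list of 11 measured entries that overlap other small RNAs, of which these 2 were called higher and 0 lower, with a median log2 fold change of 0.54. The smaller rises were miR-1910-5p (0.89), miR-296-3p (0.88) and miR-15b-3p (0.72). The calls of miR-296-3p and miR-15b-3p were each lost in 8 of 13 other settings, with TMM factors among them (limma, adjusted p = 0.104 and 0.0795), and in 4 of 5 fits with 1 library left out. For miR-1910-5p, which was also higher than in siIGF2BP2 by 1.04, the call against siC was lost whichever of the 5 libraries was left out.

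Other miRNAs were called against siIGF2BP2 and not against siC. miR-182-5p, of a cluster active in sensory cells and many carcinomas, had 7892 and 8006 in siC, 7491, 6721 and 6755 in siIGF2BP2, and 9250, 10932 and 9814 in siIGF2BP3. Its log2 fold change was 0.51 against siIGF2BP2 (limma, adjusted p = 0.00583) and 0.33 against siC (limma, adjusted p = 0.0537). miR-183-5p of the same cluster was higher than in siIGF2BP2 by 0.48, with a value of 0.08 against siC. Of the 6 members of this cluster 2 were called higher against siIGF2BP2 and 0 against siC, and the cluster took 0.999% and 0.951% of reads in siC and 1.14%, 1.27% and 1.22% in siIGF2BP3. miR-25-3p and miR-484 were also higher than in siIGF2BP2, by 0.56 and 0.52. miR-191-5p, miR-10a-5p, miR-125a-5p, miR-345-5p and miR-424-3p were lower than in siIGF2BP2, by log2 fold changes of -0.55, -0.38, -0.41, -0.53 and -0.79, and none of these was called against siC. For miR-424-3p siIGF2BP3 had 162, 125 and 155, near siC with 129 and 186, and siIGF2BP2 had 259, 271 and 235. At low levels miR-7706, miR-342-5p, miR-944 and miR-3934-5p were higher than in siIGF2BP2, by 0.99, 1.17, 1.54 and 2.91. miR-3934-5p had 0 reads in siIGF2BP2 and 5.99, 9.47 and 4.76 in siIGF2BP3. Of these calls against siIGF2BP2, those of miR-183-5p, miR-25-3p, miR-484, miR-10a-5p, miR-125a-5p, miR-345-5p, miR-424-3p, miR-7706, miR-342-5p, miR-944 and miR-3934-5p were each lost in at least 3 of 6 fits with 1 library left out.

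The let-7 miRNAs were compared as the known regulators of IGF2BP mRNAs. Of its 9 main arms 0 passed limma's test in either comparison at the deposited scaling, and their log2 fold changes against siC ran from -0.23 to 0.21 around a median of -0.01. After upper-quartile rescaling let-7b-5p, let-7f-5p, let-7g-5p and let-7i-5p were called higher against siC, by 0.58, 0.59, 0.55 and 0.39 (limma, adjusted p = 0.00619, 0.00496, 0.00673 and 0.0216). Against siIGF2BP2, let-7f-5p was called higher after rescaling to library totals (0.33, limma, adjusted p = 0.025), and let-7c-5p lower with edgeR and DESeq2 (-0.38 and -0.37, adjusted p = 0.0413 and 0.00762) and with the minimum mean raised to 10, and let-7e-5p lower with DESeq2 (-0.33, adjusted p = 0.0483). let-7a-5p, the most abundant miRNA, had 155683 and 181271 in siC and 180235, 173156 and 147602 in siIGF2BP3. In siC 28.7% and 30.5% of reads were let-7, and in siIGF2BP3 32.6%, 30.6% and 28.1%, so the groups overlapped. The growth-promoting miR-17-92 cluster and its paralogs had 21 measured members, of which 0 were called higher and 1 lower (miR-363-3p, at 11.5 and 7.98 in siC with 0 reads in siIGF2BP3), with a median of 0.29. Of the 13 listed members of the miR-15/16 family and its relatives, which repress cyclins, 0 were called against siC. The 6 of the miR-29 family, the 5 of the miR-26 family and the 11 of the cluster in CLCN5 were also not called. miR-15b-3p, from the hairpin of miR-15b-5p, was not on the miR-15/16 list and was called higher against siC (log2 fold change 0.72). Of the 11 members of the miR-99/100 and miR-125 families 1 was called higher and 0 lower. miR-210-3p, induced by hypoxia, had 24.7 and 23.95 in siC and 19.96, 18.9 and 20.2 in siIGF2BP3 and was not called. miR-34a-5p, a p53 target, had 4.95 and 9.32 in siC and 0 reads in siIGF2BP3, a fall that rests on few reads and whose call was lost in 4 of 5 fits with 1 library left out.

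**Figure D4:**
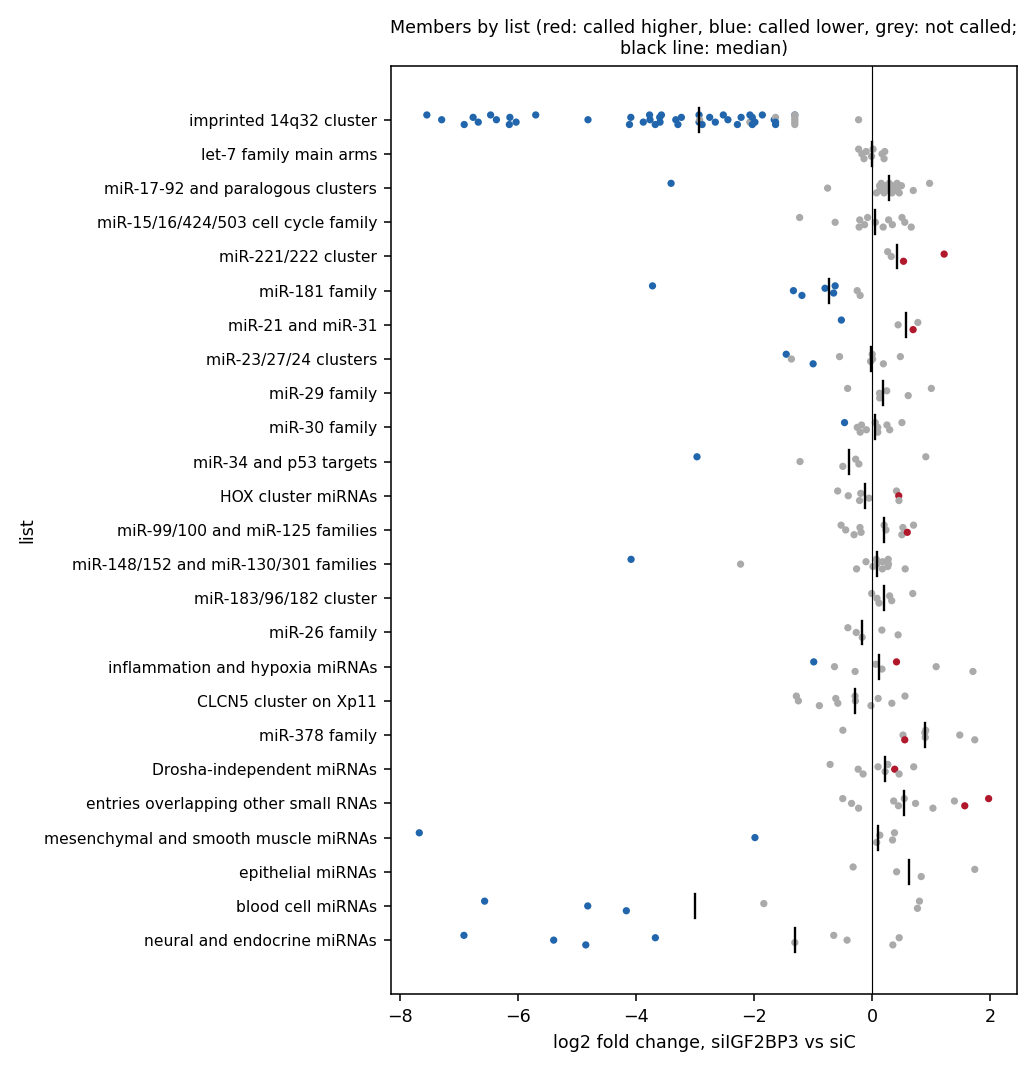
Log2 fold change of siIGF2BP3 against siC (x axis, limma) for the measured members of each miRNA list with at least 4 members (y axis); each point is 1 miRNA, coloured by its call, and black lines are medians. The miR-181 family lies below 0 with a median of -0.73, the let-7 family is centred at -0.01, and most members of the 14q32 cluster are called lower.

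Most of the lower calls, by number, were miRNAs that were nearly unread in siIGF2BP3 and in siIGF2BP2 alike. Of the 55 with at most 3 reads in siIGF2BP3, 53 also had at most 3 reads in siIGF2BP2, and the other 2 (miR-204-5p and miR-126-3p) had 4 and 5. The largest group was the imprinted cluster at 14q32, whose miRNAs are expressed from the maternal chromosome in embryonic and neural tissue. Of its 52 measured members 42 were called lower and 0 higher, 41 had 0 reads in siIGF2BP3 and 43 had 0 in siIGF2BP2. Of these 52, 44 had passed the minimum through siC alone, so that they had to differ in this direction. The median log2 fold change over the 52 was -2.93, or -2.37 with unread members set to the bound that 3 reads allow. The cluster took 0.449% and 0.206% of reads in siC, 0.177% and 0.268% in siIGF2BP1, and 0.00110% to 0.00195% in siIGF2BP2 and siIGF2BP3.

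miR-127-3p, the most abundant member of the 14q32 cluster, had 1966 and 717 in siC, 463 and 1113 in siIGF2BP1, 4.24, 1.91 and 12.1 in siIGF2BP2, and 5.99, 3.55 and 7.14 in siIGF2BP3. miR-432-5p had 122 and 94.5 in siC and 0 reads in siIGF2BP3, which is at least 78.9-fold lower, taking 3 reads over the 3 libraries as the limit. For miR-487b-3p and miR-136-3p the bounds were at least 65.6-fold and 59.6-fold lower. miR-381-3p was 210-fold lower by its pooled reads, with a 95% counting interval of 71.3 to 1022. miR-410-3p had 239 and 164 in siC, 0 reads in siIGF2BP2 and 2.0, 1.18 and 2.38 in siIGF2BP3. It was thus lower than in siC and higher than in siIGF2BP2, the latter call resting on single reads. In miR-432-5p and miR-410-3p the levels followed the source name: siIGF2BP1 had 85.2 and 79.3 for miR-432-5p and 150 and 179 for miR-410-3p.

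Some markers of other cell types followed the same split. In bulk RNA, fewer cells of a type and less RNA per cell cannot be told apart. miR-143-3p, of smooth muscle and fibroblasts, had 1089 and 1355 in siC, 579 and 1548 in siIGF2BP1, 9.90, 11.5 and 10.4 in siIGF2BP2, and 3.99, 3.55 and 8.32 in siIGF2BP3. Of 6 measured mesenchymal markers 2 were called lower and 0 higher, and the list took 0.553% and 0.613% of reads in siC and 0.568% to 0.589% in siIGF2BP3. Its member miR-199a-3p had 2278 and 2831 in siC and 3387, 3424 and 3077 in siIGF2BP3. Of 6 blood cell markers 3 were called lower and 0 higher. These 3 were both arms of miR-144 and the red cell miRNA miR-451a. miR-451a had 67.6 and 660 in siC and 0, 2.37 and 2.38 in siIGF2BP3. Its call was lost without siC C3, the library with the higher value. miR-142-5p and miR-142-3p of the same list were not called, with log2 fold changes of 0.76 and 0.80 against siC. The list's share was 0.0649% and 0.122% in siC and 0.0657%, 0.0557% and 0.163% in siIGF2BP3, so the groups overlapped.

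Both endothelial markers were called lower. miR-126-5p had 112 and 85.2 in siC, 14.1, 11.5 and 13.8 in siIGF2BP2, and 5.99, 3.55 and 4.76 in siIGF2BP3, and it was the one marker also called against siIGF2BP2 (log2 fold change -1.31, limma, adjusted p = 0.0313). The latter call was lost in 5 of 13 other settings, DESeq2 among them (adjusted p = 0.0955), and in 5 of 6 fits with 1 library left out. Of 9 neural and endocrine markers 4 were called lower and 0 higher. The islet miRNA miR-375, called lower, had 335 and 89.2 in siC, 12.9 and 30.0 in siIGF2BP1, and 2.0, 0 and 0 in siIGF2BP3. miR-9-5p had the highest log2 fold change of the list, 0.45, and was not called. The list's share of reads overlapped, at 0.206% and 0.293% in siC and 0.260%, 0.232% and 0.208% in siIGF2BP3. The 4 measured epithelial markers of the miR-200 and related families, the 2 of muscle and liver and the 1 of pluripotent cells were not called. The epithelial marker miR-200c-3p was near 0 in this carcinoma line, with 0 reads in siC and 3.99, 1.18 and 2.38 in siIGF2BP3. Through siC alone, 1 of 6 mesenchymal, 3 of 6 blood cell and 5 of 9 neural and endocrine markers had passed the minimum. This selection favours lower calls, which made up 8.66% of all 889 miRNAs tested. The part of other cell types' RNA in the falls of these markers was not tested. With the 14q32 and marker lists left out before the test, 18 miRNAs were called higher and 23 lower, out of 794.

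**Figure D5:**
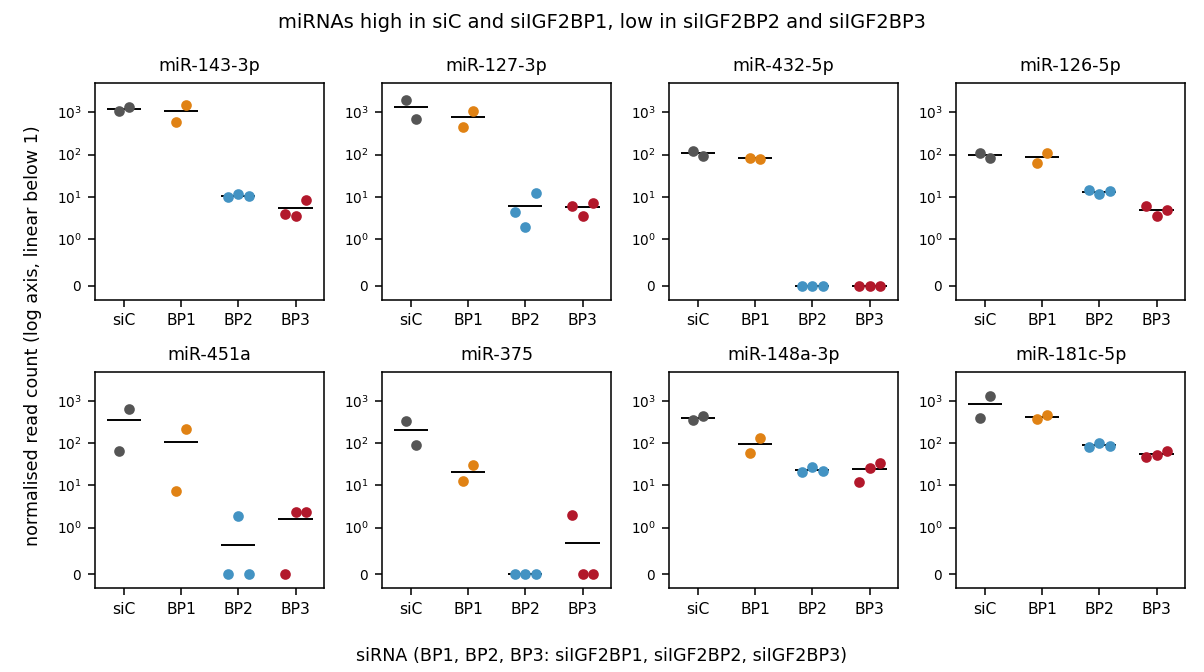
Normalised read counts (y axes, log scale, linear below 1) of 8 miRNAs in all 10 libraries by siRNA (x axes), each point 1 library and each line the group mean. In each panel the siC and siIGF2BP1 libraries lie above the siIGF2BP2 and siIGF2BP3 libraries, and miR-432-5p has 0 reads in all 6 of the latter.

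A few well expressed miRNAs shared this split without belonging to those lists. miR-148a-3p had 350 and 441 in siC, 58.6 and 136 in siIGF2BP1, 21.2, 26.7 and 22.4 in siIGF2BP2, and 12.0, 26.0 and 34.5 in siIGF2BP3, with a log2 fold change of -4.09 against siC and -0.07 against siIGF2BP2. Its relatives with the same seed did not follow: miR-148b-3p and miR-152-3p had log2 fold changes of 0.17 and -0.11 against siC. The ratio of miR-148a-3p to miR-148b-3p was 0.182 and 0.207 in siC, 0.0336 and 0.0769 in siIGF2BP1, and 0.00501, 0.0103 and 0.0177 in siIGF2BP3. miR-218-5p had 277 and 213 in siC, 308 and 858 in siIGF2BP1, 117, 111 and 117 in siIGF2BP2, and 61.9, 58.0 and 42.8 in siIGF2BP3, and its siIGF2BP3 libraries were the lowest of the 10 (log2 fold change -2.16 against siC). Within 1 source name, its difference from siIGF2BP2 was -1.09 (limma, adjusted p = 0.0773).

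Arms of the same hairpin were also compared. Among the 65 hairpins with both arms measured at a mean of at least 10, both arms were called higher in 1 (miR-222) and both lower in 4 (miR-126, miR-144, miR-181a and miR-181c), and 0 had arms called in opposite directions. In 3 of these hairpins the call of 1 arm was lost when single libraries were left out, for miR-144-5p in 3 of 5 fits, for miR-181a-3p in 4 and for miR-181c-3p in 2 (without siC C3 or siIGF2BP3 replicate 1). In 7 hairpins 1 arm was called, and in 6 of these the other arm had a fold change of the same sign. The exception was miR-21. Of 26 seeds shared by at least 2 miRNAs at a mean of at least 10, 10 had a called member, and 2 had all members called in 1 direction. These were the miR-181 seed, with a summed mean of 26057 in siC and 14990 in siIGF2BP3, and the seed of miR-1260a and miR-1260b. Of all 889 miRNAs tested 10.6% were called, and a seed with several miRNAs has more occasions for a call. Whether calls gathered by seed was not tested.

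Base composition was compared for the miRNAs with a RefSeq sequence. The median GC content was 55.5% for 14 of the 17 miRNAs called higher, 46.5% for 20 of the 22 called lower with more than 3 reads, and 45.5% for 50 of the 55 nearly unread ones. It was 47.8% for 224 of the 258 that were not called and had a mean of at least 10. A 5′ terminal U, the base that Argonaute proteins prefer, was present in 21.4% of those called higher, 55.0% of those called lower with more than 3 reads and 42.9% of those not called. The part of base composition in the calls was not tested.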

How the data were processed

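Small RNA libraries were prepared from ES-2 total RNA with an Illumina TruSeq small RNA kit and size selection, per the labels' protocols. Tools named in the submitters' processing notes are edgeR 3.12, featureCounts 1.4.6, Bowtie2 2.2.4 and cutadapt 1.6, with build hg19. How values were scaled is not stated there. The deposited library columns are a normalised signal, in which 100% of the values were whole multiples of 1 read within 0.01 reads (1 read was worth 0.803 to 2.0), so that totals of 462724 to 1269743 reads per library could be recovered. The log2 fold changes, p-values and false discovery rates deposited by the authors were used only where their table is named, in which 79 of 2794 rows have a false discovery rate of 0.05 or less, 9 of them higher and 70 lower. There were 0 columns of other samples left unused.

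Rows of 1 mature name were summed (218 rows were further genomic copies). Closely related mature sequences can share reads, which the counting may have split. The control columns match the group but no single sample, and keep their column labels (siC C2, siC C3). Separate cultures are not stated for any group, so the spread behind each p-value may be technical. Replicates differed by more than sampling noise. limma 3.58.1 (R 4.3.3) with an intensity trend was fitted on log2(value + 1), with all 4 groups in 1 fit, for the 889 miRNAs reaching a value of 1 in 2 or more of 10 libraries. This scale understates changes of low miRNAs. Adjustment was by Benjamini-Hochberg, and calls are at 0.05. The planned test for counts, edgeR, was an alternative because the values were normalised. Floors of 3 reads and 95% exact intervals cover counting error only.

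Named miRNAs are, among those called at a mean of at least 10, the 10 largest rises and falls against siC and the 5 largest of each against siIGF2BP2. All called ones with a mean of at least 1000, the 10 most abundant, up to 4 per list (29 lists) and the other arms of these were added. Further ones named were chosen after their values were seen. These are miR-23b-3p, miR-34a-5p, miR-125a-5p, miR-138-5p, miR-140-3p, miR-148a-3p, miR-152-3p, miR-181d-5p, miR-191-5p, miR-204-5p, miR-218-5p, miR-345-5p, miR-363-3p and miR-3934-5p. The members and lists were chosen with earlier results of these data known. Alternatives were pseudocounts of 0.1 and 5, 4 rescalings, no filter or a mean of at least 10, no trend, only the libraries compared, edgeR 4.0.16 and DESeq2 1.42.0 on recovered reads, each library left out, and, for siIGF2BP3 against siIGF2BP2, a replicate block. Leaving out the 14q32 and marker lists was chosen after seeing the data. The fitting steps were tested on simulated data.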

Additional observations from a re-analysis of the deposited data

How the results depend on the processing

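Against siC, the 17 higher calls became 9 with TMM factors, 9 with median-of-ratios factors, 91 after upper-quartile rescaling, 8 without the trend, 9 with edgeR, 9 with DESeq2 and 11 in a fit of only the libraries compared. With single libraries left out they ranged from 7 (without siC C2) to 15. The 77 lower calls became 40 at a mean of at least 10 and 23 without the 14q32 and marker lists, and ranged from 58 to 82 with single libraries left out. Against siIGF2BP2, the 13 higher calls became 0 without the trend, where limma gave 98 miRNAs at an unadjusted p under 0.05. edgeR and DESeq2 gave 14 and 15. They became 20 in a fit of only the libraries compared and ranged from 4 (without siIGF2BP2 replicate 2) through 6 and 8 to 11. The 15 lower calls became 1 without the trend, 26 with edgeR and 27 with DESeq2, and ranged from 7 (without siIGF2BP2 replicate 1) through 9 to 11. No named miRNA's call changed sign under any of these settings.

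Of the named calls against siC, 2 of 17 higher (miR-1260b and miR-222-5p) and 23 of 37 lower held with every library left out and under every setting that tested them. Against siIGF2BP2 this held for 0 of 13 higher and 1 of 15 lower (miR-146a-5p). Most of the 23 were tested in fewer than the 13 settings, such as miR-411-3p in 9, miR-127-5p in 10 and miR-127-3p in 12. No paired fit was made against siC, because the siC columns are numbered C2 and C3 while the labels number these libraries 1 and 2. For siIGF2BP3 against siIGF2BP2, a fit with the replicate number as a block gave 1 higher and 4 lower calls. The labels do not say that these numbers pair the libraries, and same-numbered libraries did not deviate together (r = -0.121, -0.157 and -0.0368 over 313 miRNAs, which are not independent). Of the members, 432 had a mean under 10, where the median standard error was 0.66 on the log2 scale, and 0 of them were called higher and 36 lower. At means of at least 10000 that standard error was 0.0986.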
